A study of Mus musculus with 16 samples.

Results

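Pou4f1 (ENSMUSG00000048349) was examined in murine leukaemia cells with a CBFB-MYH11 fusion, as 1 of 55487 genes in the deposited count table and 1 of 14435 that were expressed highly enough to be tested. It was chosen from these same data because 7 days of doxycycline moved it in opposite directions in bone marrow and spleen, so its values in those 4 groups are given as a description, with no test. It lies on chromosome 14, 104461676 to 104467999, minus strand (GRCm38, GENCODE M21 annotation), and no other annotated gene overlaps it. The annotation gives it a coding transcript of 4445 bases in 3 exons and a short processed transcript of 799 bases in 2 exons.

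Pou4f1 encodes BRN3A, a transcription factor that binds DNA through a POU-specific domain and a POU homeodomain. It is best known from sensory neurons, where it controls differentiation and survival genes as the neurons mature. In human acute myeloid leukaemia it is known as a gene with high expression in core binding factor leukaemia, above all in the form with RUNX1-RUNX1T1. CBFB-MYH11, made by the chromosome 16 inversion, is the other core binding factor fusion, and joins the RUNX partner CBFB to a smooth muscle myosin tail.

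The groups were bone marrow doxycycline and bone marrow control, secondary disease, and spleen doxycycline and spleen control, with 3 libraries each at 7 days and 4 of secondary disease. All cells expressed the fusion and GFP, were grown in congenic mice and were sorted for GFP. Per the design text they all held a doxycycline-inducible shRNA against MYH11, while the control labels mention fusion-expressing cells alone. Doxycycline was given in drinking water at 3 mg/ml with 5% sucrose, and controls drank sucrose water, in both cases for 7 days after engraftment. Secondary disease came from spleens of a separate cohort kept on doxycycline until signs of fatal disease, for a time that the labels do not give. The labels name no treated cells lacking the shRNA, and effects of the drug and of the knockdown cannot be told apart. The labels do not say whether replicates came from separate mice, so p-values measure the spread between libraries.

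Libraries held 12.26 to 39.42 M expected counts (M, 1000000), the lowest being secondary disease replicate 4. The labelled leukaemia cells held 54.1 to 270 CPM (counts per 1000000 after TMM scaling) of Kit, the stem cell factor receptor, and under 1 CPM of Cd34, a progenitor surface marker, in every library. Cbfb itself had 90.1 to 96.9 CPM in bone marrow doxycycline, against 119 to 139 CPM in bone marrow control, and 54.2 to 119 CPM in spleen doxycycline, against 124 to 144 CPM in spleen control. Neither difference passed the test (adjusted p = 0.340 in bone marrow and 0.547 in spleen), and the fusion transcript itself was not measured. Secondary disease replicate 4 stood apart from its group, and the spleen doxycycline libraries stood apart from each other. The chi-square per degree of freedom was 276 to 302 between secondary disease replicate 4 and the others of its group. It was 241 to 519 within spleen doxycycline, against 8.06 to 52.6 among all other replicate pairs.

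The promoter of Pou4f1 is shown because its base composition sets it apart and because it was searched for the motif of the RUNX proteins, the partners of CBFB. The window holds the 250 bases before the start, chr14:104468000-104468249, minus strand (RefSeq, GRCm38.p6), with every CG dinucleotide in capitals.
Pou4f1: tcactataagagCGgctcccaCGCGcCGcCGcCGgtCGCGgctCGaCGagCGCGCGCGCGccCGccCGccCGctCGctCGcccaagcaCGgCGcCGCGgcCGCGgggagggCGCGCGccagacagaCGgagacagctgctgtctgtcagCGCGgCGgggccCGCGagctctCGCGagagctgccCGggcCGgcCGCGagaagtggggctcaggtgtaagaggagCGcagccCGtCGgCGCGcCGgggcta
The window was 78.0% G and C, higher than 97.9% of 32817 promoter windows of the same length, whose median was 52.4%. It held 47 CG dinucleotides, where the median window held 6. None of 3 motifs searched on both strands lay in it: TGNGGT, the core bound by RUNX proteins and found in 40.1% of all windows, ATTAAT, an AT-rich core bound by BRN3 factors and found in 4.39%, and TTTNGCGC, an E2F core found in 1.13%. These letters being absent says nothing of what binds there.

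In bone marrow, Pou4f1 measured 34.2, 45.1 and 36.7 CPM with doxycycline, against 13.4, 20.1 and 17.4 CPM in controls. In spleen it measured 16.8, 17.4 and 19.3 CPM with doxycycline, against 36.2, 32.7 and 29.2 CPM in controls. Every doxycycline library of the marrow was above every control one, and every doxycycline library of the spleen was below every control one. Secondary disease libraries held 25.2, 24.7, 22.6 and 20.8 CPM, all between the spleen doxycycline and spleen control ranges.

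The expected counts behind these levels were 801, 1224 and 930 in bone marrow doxycycline, against 328, 564 and 408 in bone marrow control. They were 608, 631, 580 and 240 in secondary disease, 523, 436 and 425 in spleen doxycycline, and 823, 762 and 1189 in spleen control. The fewest, 240, came from secondary disease replicate 4, whose level is the least precise.

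**Figure D1:**
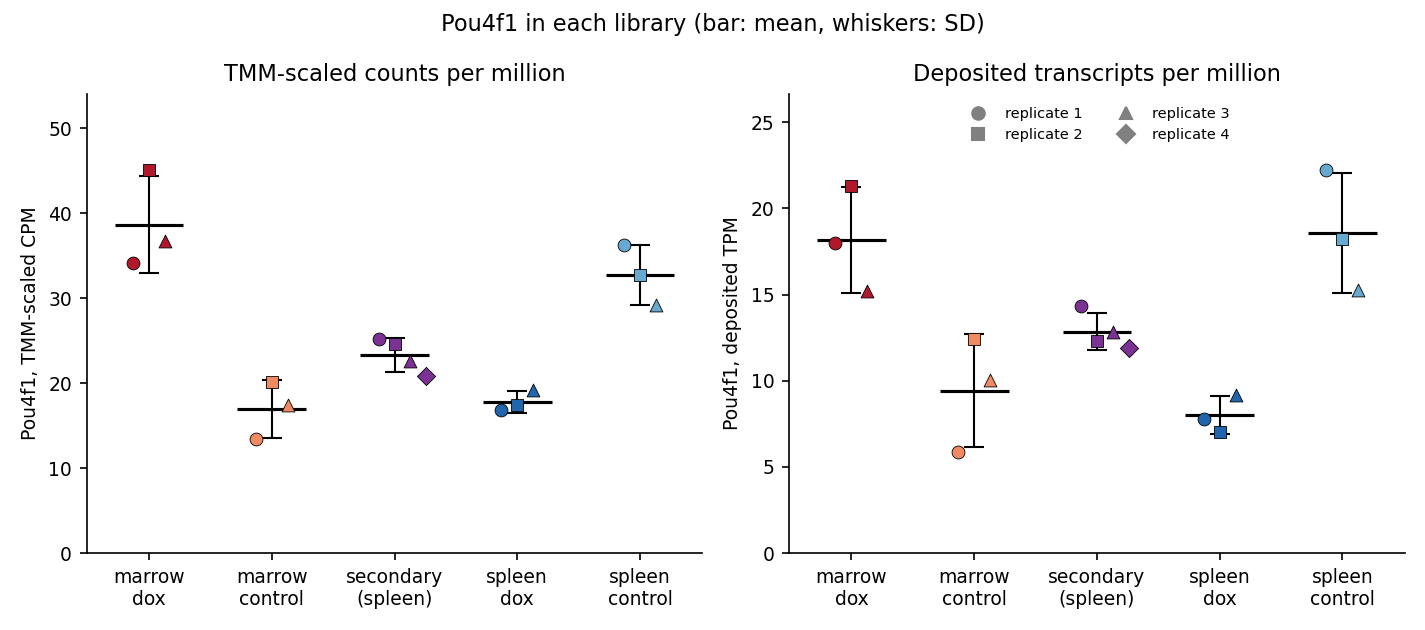
Pou4f1 in each of 16 libraries, as TMM-scaled CPM (left) and as deposited TPM (right). Points are libraries with a marker per replicate number, bars are group means and whiskers SD; on both scales bone marrow doxycycline and spleen control are high, bone marrow control and spleen doxycycline are low, and secondary disease lies between.

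Group means were 38.7 ± 5.70 CPM in bone marrow doxycycline and 17.0 ± 3.40 CPM in bone marrow control (SD, n = 3 each). Secondary disease averaged 23.3 ± 1.99 CPM (SD, n = 4), spleen doxycycline 17.8 ± 1.28 CPM and spleen control 32.7 ± 3.51 CPM (SD, n = 3 each). From high to low the order was bone marrow doxycycline, spleen control, secondary disease, spleen doxycycline and bone marrow control. The ranges of the highest pair overlapped, as did those of the lowest pair. Secondary disease overlapped with neither of its neighbours in that order.

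The log2 fold change was 1.19 ± 0.17 (SE) for bone marrow doxycycline over control, a 2.28-fold higher level. For spleen doxycycline over control it was −0.88 ± 0.17, which is 0.545 of the control level. Both are description only. In size they exceeded those of 92.2% and 93.3% of the 9092 genes averaging 3 log2 CPM or more. The spleen effect minus the marrow effect was −2.06 ± 0.24, larger in size than that of 98.3% of these genes. Because RNA came from sorted bulk cells, fewer cells with the gene and less RNA per cell cannot be told apart.

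The marrow groups did not overlap in the higher direction for 23.1% of tested genes, and the spleen groups did not overlap in the lower direction for 10.7%. Both held together for 138 genes (0.956%), Pou4f1 among them, and the mirrored pattern held for 59 genes (0.409%). Nothing is read from these shares for Pou4f1 itself, since it was chosen on these contrasts.

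Without doxycycline the tissues stood the other way round from the treated ones. Spleen control had 1.93 times the level of bone marrow control, a log2 fold change of 0.95 ± 0.17 that is larger in size than that of 97.0% of the genes averaging 3 log2 CPM or more. The control groups did not overlap in that direction for 16.3% of genes tested. The control libraries took part in choosing the gene, which favours a large difference between them, so nothing is read from these shares. Treated spleen lay in the range of untreated marrow, with 16.8 to 19.3 CPM in spleen doxycycline beside 13.4 to 20.1 CPM in bone marrow control. Treated marrow overlapped with untreated spleen, with 34.2 to 45.1 CPM beside 29.2 to 36.2 CPM.

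The spread of Pou4f1 within a group was compared with that of 1952 genes whose average lay within 0.5 log2 CPM of it. In spleen doxycycline, where libraries differed most, its SD was 0.102 log2 CPM against a median of 0.374 for those genes, and 5.79% of them had a smaller one. In secondary disease its SD was 0.125 against a median of 0.307, with 12.9% smaller. In the other groups it was more spread than most such genes, with 0.207 against 0.112 in bone marrow doxycycline, 0.298 against 0.147 in bone marrow control and 0.155 against 0.0858 in spleen control. The gene thus varied least where the libraries as a whole varied most.

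Red cell markers were high in the same bone marrow doxycycline libraries. The summed level of 11 erythroid markers was 49400 to 62000 CPM in bone marrow doxycycline, against 2910 to 4830 CPM in bone marrow control. It was 4710 to 7420 CPM in secondary disease, 6000 to 88100 CPM in spleen doxycycline and 3530 to 5610 CPM in spleen control. Within spleen doxycycline these markers summed to 6000, 88100 and 42100 CPM in replicates 1 to 3, while Pou4f1 stayed at 16.8, 17.4 and 19.3 CPM. The part of red cell content in the marrow difference was not tested.

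Markers of 12 neutrophil genes summed to 329 to 672 CPM in bone marrow doxycycline, against 897 to 1340 CPM in bone marrow control. In spleen they summed to 2.85 to 66.5 CPM in secondary disease, 17.1 to 162 CPM with doxycycline and 54.9 to 172 CPM in controls. The neutrophil sum was thus higher in marrow than in spleen among controls, where Pou4f1 was lower, and its part in that difference was not tested.

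The deposited TPM (transcripts per 1000000, a level per length of transcript) kept the high and low groups apart in both tissues. TPM were 18.0, 21.3 and 15.2 in bone marrow doxycycline, against 5.88, 12.4 and 10.02 in bone marrow control. They were 14.3, 12.3, 12.9 and 11.9 in secondary disease, 7.76, 7.02 and 9.20 in spleen doxycycline, and 22.2, 18.2 and 15.3 in spleen control. Within the pairs that overlapped, the means changed places: spleen control (18.6 ± 3.49 TPM) was above bone marrow doxycycline (18.2 ± 3.06 TPM), and bone marrow control (9.43 ± 3.30 TPM) was above spleen doxycycline (7.99 ± 1.11 TPM; SD, n = 3 each). Secondary disease, at 12.8 ± 1.06 TPM (SD, n = 4), again overlapped with neither other spleen group, but in TPM it overlapped with bone marrow control.

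A TPM and an expected count together fix the mean length of the molecules counted, which was used to estimate how Pou4f1 split between its 2 transcripts. The coding transcript came to 8.14, 10.4 and 8.10 TPM in bone marrow doxycycline, against 3.59, 4.77 and 5.30 TPM in bone marrow control. It came to 6.91, 6.57, 5.99 and 3.64 TPM in secondary disease, 4.11, 3.69 and 3.74 TPM in spleen doxycycline, and 10.2, 8.34 and 8.34 TPM in spleen control. In the groups at 7 days the estimated coding transcript followed the gene total, with no overlap between doxycycline and control in either tissue. Secondary disease replicate 4, at 3.64 TPM, lay below every spleen doxycycline library, which was not so for the gene total.

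**Figure D2:**
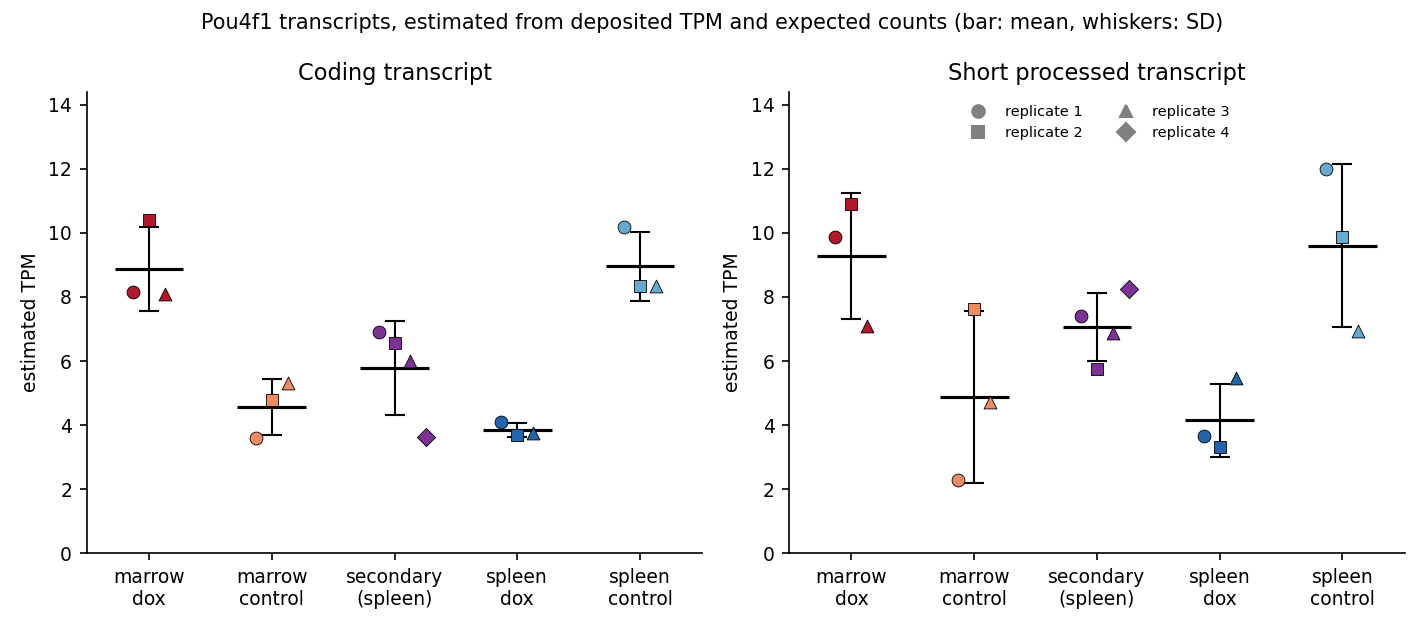
Estimated TPM of the coding transcript (left) and the short processed transcript (right) of Pou4f1 in each library, with group means (bars) and SD (whiskers). The coding transcript separates doxycycline from control in both tissues; the short one overlaps in bone marrow, and secondary disease replicate 4 has 3.64 TPM of the coding and 8.26 TPM of the short transcript.

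The short transcript came to 9.87, 10.9 and 7.09 TPM in bone marrow doxycycline, against 2.29, 7.63 and 4.72 TPM in bone marrow control, so these groups overlapped. It came to 7.42, 5.74, 6.86 and 8.26 TPM in secondary disease. In spleen it came to 3.65, 3.33 and 5.46 TPM with doxycycline, against 12, 9.86 and 6.93 TPM in controls. Its share of Pou4f1 molecules ran from 39 to 69.4% of a library, with the highest in secondary disease replicate 4. The last exon of the short transcript lies within that of the coding one, so the split is an estimate and not a direct count.

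Secondary disease libraries took no part in choosing the gene, so their differences were tested, but against spleen groups that did. The choice set those groups apart, which favours another group lying between them, so the p-values and intervals that follow are not independent of it. Against spleen control, Pou4f1 had a log2 fold change of −0.49 ± 0.15 (SE), with an approximate 95% interval of −0.788 to −0.185. It did not pass edgeR's quasi-likelihood test over all genes (adjusted p = 0.139), where 2.03% of genes did. All 4 secondary disease libraries lay below all 3 spleen control ones, which was so for 12.4% of genes tested. An exact two-sided permutation test gave p = 0.0571, the smallest that 4 against 3 libraries allow.

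Set against spleen doxycycline, the log2 fold change of Pou4f1 was 0.39 ± 0.16 (SE), with an approximate 95% interval of 0.0834 to 0.696. This did not pass either (adjusted p = 0.213), where 0.928% of genes did. All 4 secondary disease libraries lay above all 3 spleen doxycycline ones, as for 3.08% of genes tested, and the exact two-sided permutation test again gave p = 0.0571, its smallest. On log2(TPM + 0.1) this difference was 0.683. Over all alternative fits the adjusted p stayed between 0.054 and 0.443 against spleen control and between 0.11 and 0.887 against spleen doxycycline.

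Neuron and glia markers were high in secondary disease replicate 4. The 12 neuron and glia markers summed to 2840 CPM there, against 173 to 315 CPM in the other 15 libraries, where 9 of the 12 stayed below 1 CPM. Of 25 genes of the sensory neuron list other than Pou4f1, 11 reached 1 CPM in that library, among them Isl1, a partner of BRN3A in sensory neurons; the other libraries had 1 or 2, Nefh and Eomes. Pou4f1 was lowest there of the 4 secondary disease libraries, at 20.8 CPM, and the part of those markers' source in it was not tested. Without it the group averaged 24.2 CPM, and the log2 fold change was −0.44 against spleen control (adjusted p = 0.165) and 0.44 against spleen doxycycline (adjusted p = 0.110).

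**Figure D3:**
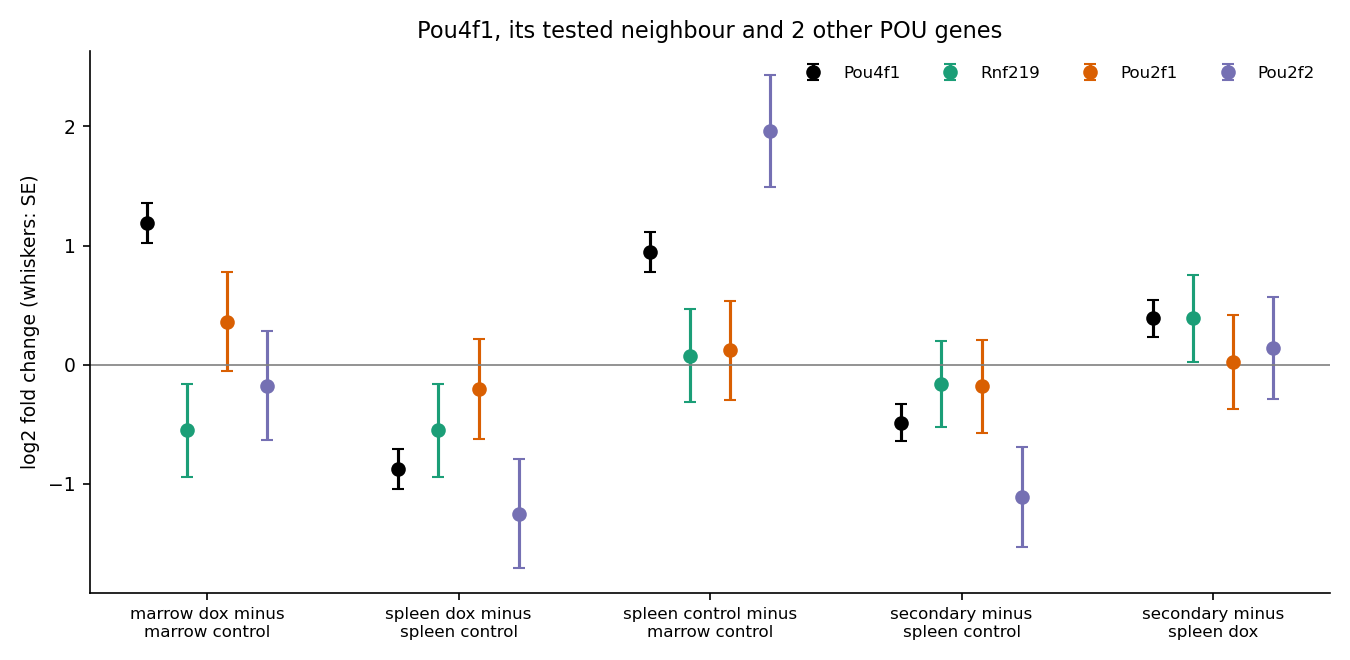
Log2 fold change with SE (whiskers) of Pou4f1, its neighbour Rnf219 and the POU genes Pou2f1 and Pou2f2 in 5 comparisons, the first-named group being the numerator. Pou4f1 changes sign between marrow (1.19) and spleen (−0.88), while Rnf219 is at −0.55 in both.

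The neighbours of Pou4f1 did not share its pattern where they could be measured. Of 7 other genes whose start lies within 500 kb, 4 had no count in any library and 2 stayed at or below 0.368 CPM. The nearest of these, the long non-coding RNA gene D130079A08Rik, starts 8.663 kb away and had at most 10 expected counts in a library. Only Rnf219 was tested, which encodes a ubiquitin ligase of replication origins and starts 54.65 kb away on the same strand.

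Rnf219 measured 23.8, 23.1 and 24.4 CPM in bone marrow doxycycline, against 34.5, 35.2 and 34.6 CPM in bone marrow control. In spleen it measured 24.5, 21.9 and 28.6 CPM with doxycycline, against 36.8, 35.6 and 37.5 CPM in controls. It was lower with doxycycline in every library of both tissues; marrow groups did not overlap in that direction for 24.6% of genes. The log2 fold change was −0.55 ± 0.39 in both, which did not pass the test (adjusted p = 0.478 in marrow and 0.645 in spleen, where 6.57% and 0.741% of genes passed).

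The spread behind the Rnf219 test came largely from 1 library, since secondary disease had 41.6, 39.9, 41.0 and 8.07 CPM. Without secondary disease replicate 4, Rnf219 passed in marrow (log2 fold change −0.55, adjusted p = 0.00483) and in spleen (−0.55, adjusted p = 0.0151), where 17.0% and 5.37% of genes did. It then also passed in secondary disease against spleen doxycycline, at 0.71 (adjusted p = 0.00654), where 4.98% of genes did. Against spleen control its difference turned direction, to 0.16 without that library and −0.16 with it, passing in neither fit. The difference of its doxycycline effect between the tissues was −0.00 ± 0.55 (adjusted p = 1.00), where 0.0485% of all genes passed.

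The list for the POU family held 16 genes, among them Pou2af1, the gene of a co-activator and not of a POU factor. Of this list, 3 besides Pou4f1 were tested. The closest relatives of Pou4f1, Pou4f2 and Pou4f3, which act in retinal and hair cells, had no count in any library. Pou2f1, which encodes the widely expressed factor OCT1, had 8.61, 9.81 and 6.87 TPM in bone marrow doxycycline, against 5.89, 6.31 and 9.88 TPM in bone marrow control. It had 10.9, 6.42, 6.30 and 9.15 TPM in secondary disease, 3.16, 7.92 and 5.15 TPM in spleen doxycycline, and 7.84, 7.16 and 9.03 TPM in spleen control, with overlapping doxycycline and control ranges in both tissues. In CPM, Pou2f1 was above Pou4f1 in all 5 groups, with group means of 54.2 to 73.7 CPM against 17.0 to 38.7 CPM. Per length, Pou4f1 had the highest group mean of the 16 genes in all 5 groups, from 7.99 TPM in spleen doxycycline to 18.6 TPM in spleen control. That rank counts both its transcripts: the estimated coding transcript averaged 4.55 TPM in bone marrow control, 5.78 TPM in secondary disease and 3.85 TPM in spleen doxycycline, below the Pou2f1 means of 7.36, 8.19 and 5.41 TPM in those groups.

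Pou2f2, which encodes the lymphoid factor OCT2, had 2.39, 2.87 and 1.74 CPM in bone marrow doxycycline, against 2.73, 2.32 and 2.85 CPM in bone marrow control. It had 8.16, 2.55 and 2.26 CPM in spleen doxycycline, against 10.5, 9.88 and 10.5 CPM in spleen control. Between the controls it was higher in spleen, as Pou4f1 was, with a log2 fold change of 1.96 ± 0.47. That did not pass edgeR's test (adjusted p = 0.129, where 0.187% of genes passed), but it passed the Wald test of DESeq2 (adjusted p = 0.00215) and limma-voom (0.0269). Its spleen doxycycline difference was −1.25 ± 0.46 (adjusted p = 0.244) and without spleen doxycycline replicate 1 it was −2.09 (adjusted p = 0.00400).

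Pou2af1, the co-activator of these octamer factors, stayed at or below 3.39 CPM. None of the 3 was called in any of the 6 comparisons by edgeR, and 1, 1, 0, 1, 1 and 0 of them had an unadjusted p under 0.05 in bone marrow doxycycline, spleen doxycycline, the difference between them, the control tissues, and secondary disease against spleen control and against spleen doxycycline. In the same order, 3159, 1788, 1102, 999, 2177 and 2515 of all 14435 genes tested had an unadjusted p under 0.05. DESeq2 and limma-voom each called Pou2f2 between the control tissues and nothing else of the 3.

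The genes of the core binding factor were a second list: Cbfb, the RUNX genes, the ETO family and Myh11, of which 7 of 8 were tested, all but Myh11. None was called by edgeR in any comparison. In the same order, 4, 2, 1, 3, 3 and 1 had an unadjusted p under 0.05, beside the counts over all genes given above. Their median log2 fold change was −0.56 in bone marrow doxycycline, where it was −0.02 over all genes, and −0.46 in spleen doxycycline, where it was 0.02. Runx1t1, the ETO gene of the other core binding factor fusion, had 49.4, 37.5 and 51.6 CPM in spleen doxycycline, against 104, 84.4 and 91.2 CPM in spleen control (log2 fold change −1.01 ± 0.235, adjusted p = 0.0628). In marrow it had 38.6, 33.0 and 36.2 CPM with doxycycline, against 70.5, 42.8 and 45.8 CPM in controls (−0.56 ± 0.23, adjusted p = 0.173), the same sign in both tissues.

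Among 21 genes known from human core binding factor leukaemia, 11 were tested and none was called by edgeR in any comparison. An unadjusted p under 0.05 was found for 4, 4, 1, 7, 7 and 3, beside 3159, 1788, 1102, 999, 2177 and 2515 of all 14435 genes. Among the 7 against spleen control were Sparc, Cacna2d2 and Nrp1, at 217, 53.5 and 3.04 CPM in secondary disease replicate 4. In the other secondary disease libraries they had at most 0.331, 0.468 and 0.248 CPM. DESeq2's Wald test called 3, 1, 0, 2, 2 and 0 of them, and 2, 1, 0, 2, 1 and 0 of the core binding factor genes. Limma-voom called 1 gene of the leukaemia list, Mpo between the control tissues, and none of the core binding factor genes. In the same order of comparisons, the Wald test called 13.8, 4.95, 1.73, 2.11, 5.24 and 6.0% of all genes, and limma-voom 6.51, 0.693, 0.236, 1.18, 2.44 and 0.457%.

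Genes that BRN3A is known to regulate or bind in neurons were listed in 2 groups. Of 15 survival and cell cycle genes, 12 were tested. Bcl2l1, which encodes the survival protein BCL-XL, had 219, 235 and 271 CPM in bone marrow doxycycline, against 109, 79.1 and 98.5 CPM in bone marrow control. It rose there by a log2 fold change of 1.34 ± 0.22 (adjusted p = 0.00604), the 1 of 12 called by edgeR, which called 6.57% of all genes, and without bone marrow control replicate 2 the adjusted p was 0.0530. The Wald test called 3 of 12 there (Bcl2l1, Cdkn1a and Gadd45a), where it called 13.8% of all genes, and limma-voom called Bcl2l1. Over these 12 genes the median was 0.10 on the log2 scale, against −0.02 over all genes.

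Bcl2l1 had 84.9, 113, 104 and 107 CPM in secondary disease, against 158, 301 and 169 CPM in spleen doxycycline. It fell there by 1.03 ± 0.20 on the log2 scale (adjusted p = 0.0315), again the 1 of 12 called by edgeR, which called 0.928% of all genes. That call was lost in 12 of 23 alternative fits. Without spleen doxycycline replicate 2 the change was −0.681 and the adjusted p 0.0799. The Wald test called the same 3 genes as in marrow, where it called 6.0% of all genes, and limma-voom called Bcl2l1. In spleen doxycycline against control its log2 fold change was 0.44 ± 0.22 (adjusted p = 0.438). The erythroid sum was higher in the same bone marrow doxycycline libraries, and its part in the Bcl2l1 difference was not tested.

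Cdkn1a, the gene of the cell cycle inhibitor p21, had 45.5, 91.7, 81.0 and 54.0 CPM in secondary disease, against 213, 237 and 237 CPM in spleen control. It fell by 1.75 ± 0.34 on the log2 scale (adjusted p = 0.0176), the 1 of 12 called by edgeR, beside 2.03% of all genes, and leaving out any 1 spleen control library gave an adjusted p of 0.0608 to 0.082. The Wald test called Cdkn1a and Ccnd1 there, beside 5.24% of all genes, and limma-voom Cdkn1a, beside 2.44%. Ccnd1 had 1.16, 1.09, 0.508 and 13.1 CPM in secondary disease, against 1.01, 0.258 and 0.466 CPM in spleen control. It was thus far higher in secondary disease replicate 4 than in the rest of that group. Bcl2, a survival gene that BRN3A activates in neurons, had a log2 fold change of −0.53 ± 0.32 in bone marrow doxycycline (adjusted p = 0.366) and −0.91 ± 0.32 in spleen doxycycline (adjusted p = 0.217). In the 7-day spleen comparison, the difference between the tissues and the control tissues, edgeR called none of the 12, with 2 under an unadjusted p of 0.05 in each. The Wald test called Gadd45a in the first, none in the second and Cdkn1a in the third, and limma-voom Cdkn1a in the third.

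Of 26 sensory neuron genes, 3 were expressed highly enough to be tested. The 1 called was Eomes, a T-box factor gene that BRN3A represses in sensory neurons and that lymphoid cells also use. It had 0.0828, 0.0782, 0.117 and 0 CPM in secondary disease, against 2.20, 1.25 and 1.74 CPM in spleen control and 3.37, 2.47 and 0.453 CPM in spleen doxycycline. It fell against both, by 4.41 ± 0.85 (adjusted p = 0.0178) and 4.69 ± 0.86 (adjusted p = 0.0265) on the log2 scale, where edgeR called 2.03% and 0.928% of all genes, although limma-voom called it in neither and leaving out any 1 spleen control library gave an adjusted p of 0.0528 to 0.0672 in the first. Against spleen doxycycline the Eomes call was lost in 10 of 23 alternative fits. In the 4 other comparisons none of the 3 was called by edgeR, DESeq2 or limma-voom, and edgeR gave none an unadjusted p under 0.05.

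Of 23 blood transcription factor genes, 20 were tested, and in bone marrow doxycycline 5 rose and 2 fell by edgeR, which called 6.57% of all genes there. The Wald test called 10 of the 20 and limma-voom 6. Those that rose on the log2 scale were Gata1 (0.61 ± 0.14, adjusted p = 0.0246), Gata2 (1.36 ± 0.32, 0.0249), Klf1 (1.24 ± 0.29, 0.0234), Nfe2 (1.14 ± 0.19, 0.00667) and Lyl1 (0.89 ± 0.17, 0.0123). The ETS genes Etv6 and Erg fell by 1.72 ± 0.36 (adjusted p = 0.0153) and 3.32 ± 0.87 (adjusted p = 0.0377). The list's median was −0.29. Each of the 7 lost its call without at least 1 marrow library, with a highest adjusted p of 0.0551 for Nfe2 and 0.158 for Erg. The Erg call was lost in 14 of 23 alternative fits.

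In spleen doxycycline 1 of the 20 rose, beside 0.741% of all genes called. This was Gfi1b, a repressor acting in red cell and platelet lineages (0.67 ± 0.14, adjusted p = 0.0451). Its call was lost in 16 of 23 alternative fits. The adjusted p was 0.264 without spleen control replicate 1 and 0.358 from only the groups compared. In secondary disease against spleen control, where 2.03% of all genes were called, Gfi1b rose by 0.68 ± 0.13 (adjusted p = 0.0151), a call lost without any 1 spleen control library (0.0796 to 0.114) and without a filter (0.0575). Cebpe, a granulocyte factor, fell there by 6.24 ± 1.15 (adjusted p = 0.0140), a call lost by limma-voom (0.0618), without spleen control replicate 2 (0.0511) and without secondary disease replicate 2 (0.0514).

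Cebpe had 0.166, 0.0391, 0.117 and 0 CPM in secondary disease, against 20.1, 0.359 and 1.31 CPM in spleen doxycycline, where replicate 1 was far above the others. It fell by 6.28 ± 1.15 (adjusted p = 0.0266), where 0.928% of all genes were called, and by 3.16 without that replicate. The call was lost by limma-voom (−4.71, adjusted p = 0.245), without a filter (0.0556) and without single libraries, up to 0.0838 without secondary disease replicate 3. Klf1 fell by 1.19 ± 0.26 (adjusted p = 0.0491). Its call was lost in 18 of 23 alternative fits, among them limma-voom (adjusted p = 0.089) and DESeq2 size factors (0.0521). Without spleen doxycycline replicate 2, whose erythroid sum was highest, it was at −0.581 (adjusted p = 0.0799). None of the 20 was called by edgeR for the difference between the tissues or between the control tissues, with 6 and 4 under an unadjusted p of 0.05. The Wald test called 1 and 2 there, and limma-voom 0 and 1.

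Genes were then ranked by how closely their log2 CPM followed Pou4f1 over the 16 libraries, among 8714 named genes averaging 3 log2 CPM or more. Pearson's r ran from −0.859 to 0.839 with a median of 0.0061, and 0.482% of the genes reached 0.7 in size. These are descriptions: libraries of a group share their treatment, and all values share each library's scaling.

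The 8 genes that followed Pou4f1 most closely were Aida (r = 0.839, Spearman's rho = 0.762), Acad11 (0.826, 0.815), Slc38a7 (0.807, 0.821), Tbck (0.783, 0.876), Samhd1 (0.769, 0.615), Paip2b (0.758, 0.765), Creb3l2 (0.757, 0.70) and Lrrc42 (0.752, 0.609). Acad11 encodes an acyl-CoA dehydrogenase, Slc38a7 a lysosomal amino acid transporter, Samhd1 an enzyme that breaks down deoxynucleotides, Paip2b an inhibitor of translation and Creb3l2 a transcription factor of the endoplasmic reticulum. The next gene had r = 0.752.

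Aida, whose protein binds axin, had 72.8, 74.4 and 73.2 CPM in bone marrow doxycycline, against 52.7, 57.2 and 49.8 CPM in bone marrow control. In spleen it had 53.9, 59.6 and 56.8 CPM with doxycycline, against 69.5, 68.1 and 65.5 CPM in controls. The groups did not overlap in either tissue, as for 0.956% of genes tested, in a gene picked for following Pou4f1 over these libraries. Its secondary disease libraries, at 50.4, 54.9, 53.2 and 56.6 CPM, lay with spleen doxycycline and not between the groups as those of Pou4f1 did. Its log2 fold changes of 0.47 in marrow and −0.25 in spleen were smaller than those of Pou4f1.

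**Figure D4:**
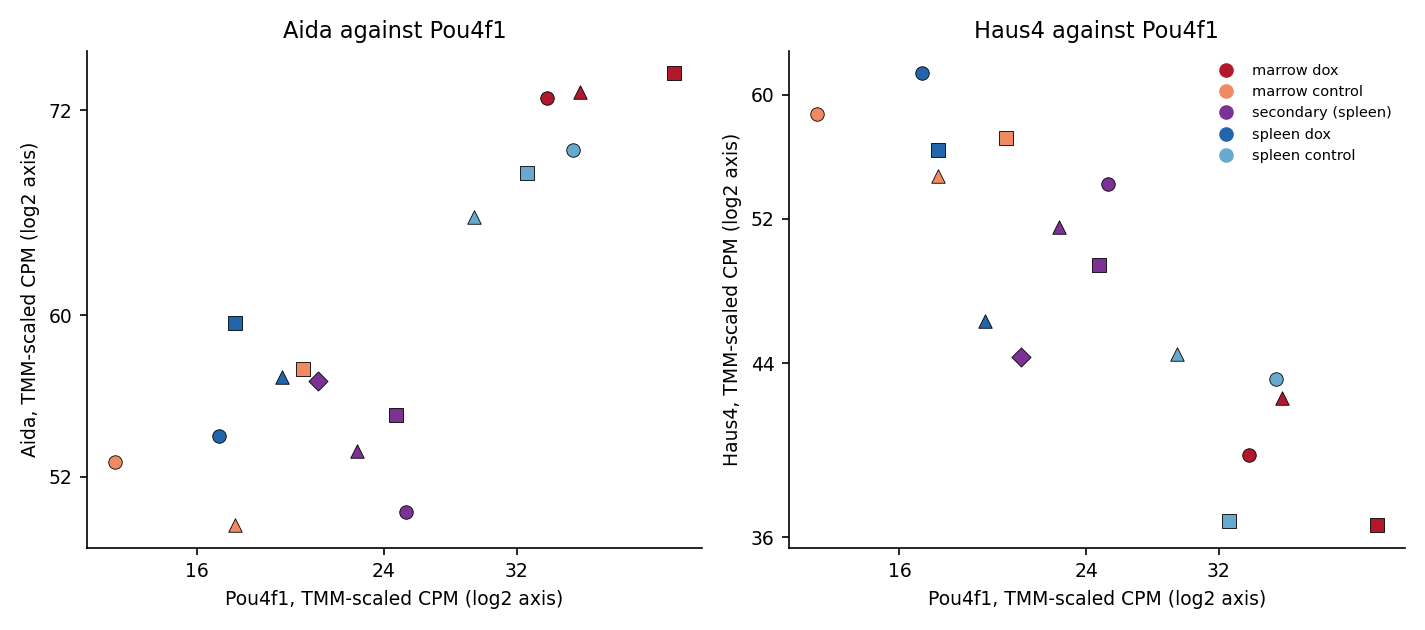
Aida (left) and Haus4 (right) against Pou4f1, both as TMM-scaled CPM on log2 axes, with 1 point per library coloured by group and shaped by replicate number. Aida is highest where Pou4f1 is highest (r = 0.839) and Haus4 lowest there (r = −0.859), with the libraries of a group lying together.

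The 8 genes at the other end were Haus4 (r = −0.859, rho = −0.876), Cenph (−0.837, −0.826), Tcf19 (−0.808, −0.838), Tk1 (−0.803, −0.762), Chaf1b (−0.800, −0.809), Kdm2b (−0.790, −0.715), Cks1b (−0.789, −0.829) and Knstrn (−0.764, −0.835). Haus4 encodes a subunit of the augmin complex of the mitotic spindle, Cenph a kinetochore protein, Tk1 thymidine kinase, Chaf1b a subunit of chromatin assembly factor 1, Kdm2b a histone demethylase, Cks1b a subunit of cyclin-dependent kinases and Knstrn a spindle protein. The next gene had r = −0.754.

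Haus4 had 39.6, 36.5 and 42.3 CPM in bone marrow doxycycline, against 58.7, 57.1 and 54.6 CPM in bone marrow control. In spleen it had 61.5, 56.3 and 46.2 CPM with doxycycline, against 43.2, 36.7 and 44.5 CPM in controls. It mirrored Pou4f1 with no overlap between doxycycline and control in either tissue, as for 0.409% of genes tested. Haus4 was picked for its low r with Pou4f1 over these libraries, so this restates that choice. Cenph had 41.4, 33.3 and 44.7 CPM in bone marrow doxycycline, against 73.8, 85.3 and 61.8 CPM in bone marrow control, and 61.8, 58.6 and 68.3 CPM in spleen doxycycline, against 50.1, 49.0 and 46.2 CPM in spleen control.

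**Figure D5:**
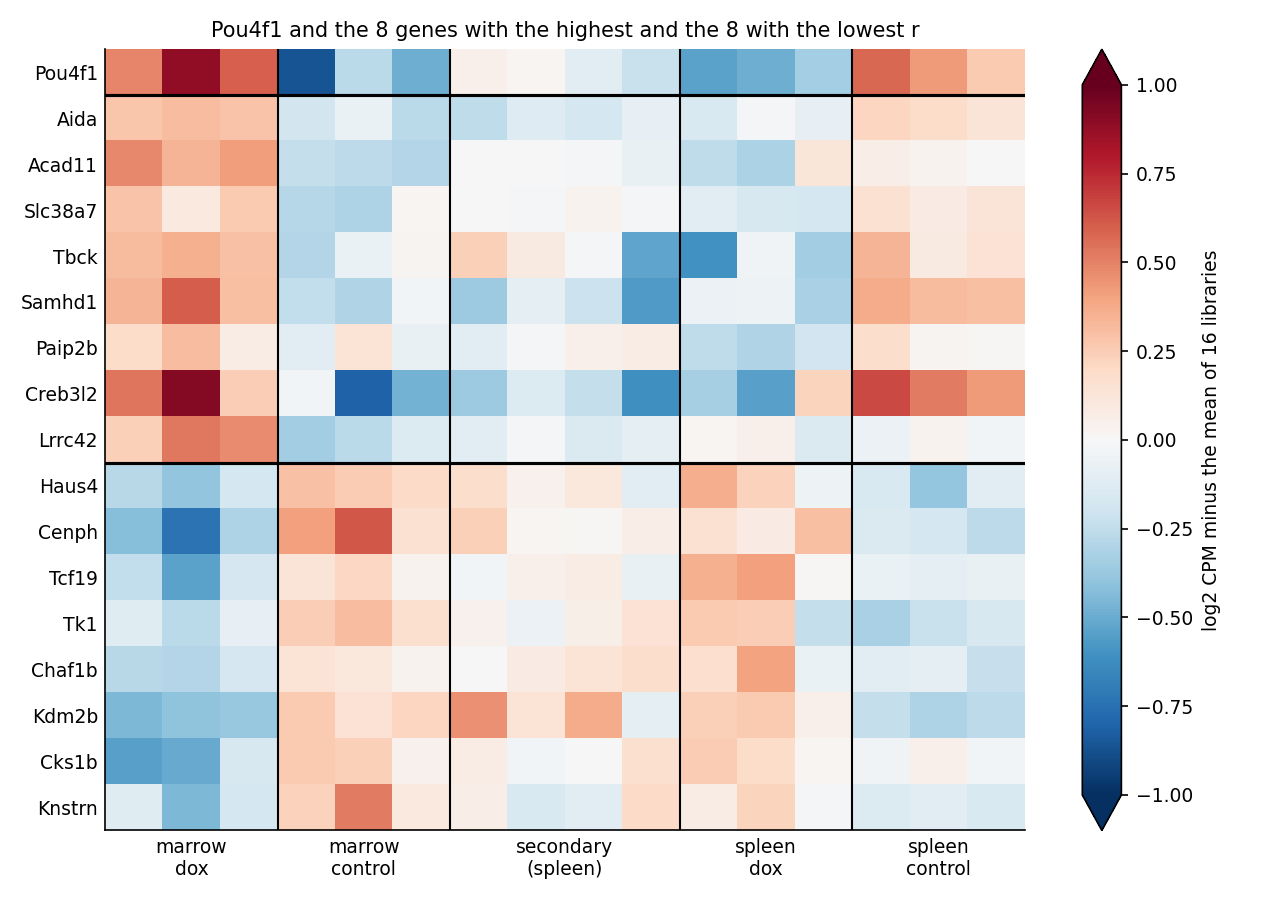
Log2 CPM minus the mean of the 16 libraries for Pou4f1 (top row), the 8 genes with the highest r and the 8 with the lowest r with it, with 1 column per library and black lines between groups. The upper 8 are above their mean in bone marrow doxycycline and mostly below it in bone marrow control, and the lower 8 show the reverse.

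The likeness came from differences between groups more than from libraries within a group. Over the 12 libraries at 7 days r was 0.762 to 0.947 for the first 8 genes and −0.959 to −0.791 for the others. Without the 2 libraries farthest from the median of Pou4f1, bone marrow doxycycline replicate 2 and bone marrow control replicate 1, it was 0.572 to 0.810 and −0.804 to −0.656. Of deviations from group means, r was −0.192 to 0.559 and −0.455 to 0.0538. On log2(TPM + 0.1) it was 0.483 to 0.800 for the first 8 and −0.457 to −0.181 for the others, so the second 8 depended on the scale.

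Within groups, other genes followed it. The highest r of deviations from group means were those of Bmpr2, a receptor of bone morphogenetic proteins (0.777), Pias1 (0.744), Klhl23 (0.741), Tgoln1 (0.734) and Twf1 (0.733). The lowest were those of Trappc12 (−0.844), Slc25a3, the mitochondrial phosphate carrier (−0.810), Sdha, a subunit of succinate dehydrogenase (−0.805), Wdr89 (−0.785) and Dhdds (−0.783). None of these 10 was among the 16 above, and on log2(TPM + 0.1) their r was 0.245 to 0.636 and −0.591 to −0.320.

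Only Slc38a7 shared all 5 relations of Pou4f1 without overlap, that is bone marrow doxycycline above control, spleen doxycycline below control, spleen control above bone marrow control, and secondary disease below spleen control and above spleen doxycycline. With Pou4f1 these are 2 of the 14435 genes tested (0.0139%). The relations were read from the values of Pou4f1 itself, among them contrasts used to choose it. Pou4f1 thus meets them by construction, and nothing is read from this share. Slc38a7 had 14, 12.3 and 13.8 CPM in bone marrow doxycycline, against 9.46, 9.29 and 11.7 CPM in bone marrow control. It had 11.5, 11.4, 11.8 and 11.4 CPM in secondary disease, 10.7, 10.3 and 10.2 CPM in spleen doxycycline, and 12.8, 12.2 and 12.6 CPM in spleen control. Its differences were smaller than those of Pou4f1, with log2 fold changes of 0.40 in marrow and −0.27 in spleen.

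The promoter of Slc38a7 is shown as the counterpart of that of Pou4f1, from chr8:95853492-95853741, minus strand (RefSeq, GRCm38.p6), with its single match to TGNGGT in capitals.
Slc38a7: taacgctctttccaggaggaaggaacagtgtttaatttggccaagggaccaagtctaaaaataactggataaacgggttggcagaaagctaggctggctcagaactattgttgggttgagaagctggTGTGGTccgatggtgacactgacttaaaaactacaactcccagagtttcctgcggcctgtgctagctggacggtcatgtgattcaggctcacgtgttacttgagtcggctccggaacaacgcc
The match lies 123 to 118 bases before the start, and the window was 49.6% G and C with 9 CG dinucleotides, against 78.0% and 47 for Pou4f1. TGNGGT was in the windows of 6 of the 8 genes with the highest r and of 3 of the 8 with the lowest, against 40.1% of all windows. Neither ATTAAT nor TTTNGCGC was in any of the 16. These counts are descriptions of 16 windows chosen by their genes' values.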

How the data were processed

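RNA was measured in 16 libraries of GFP-sorted cells from 5 groups, taken from the labels. Per the labels' protocols, RNA was extracted with TRIzol and libraries were made with oligo-dT selection and the NEBNext Ultra II kit; whether counting used strand is not given in the sources. Per the submitters' processing notes, the tools were STAR and RSEM on GRCm38, beside Trim Galore, MultiQC and FastQC, with no version stated. The authors deposited expected counts per gene, as RSEM estimates them, of which 5.8 to 10.85% per library were not whole. The authors also deposited TPM per gene, which RSEM scales by transcript length and library.

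Expected counts were rounded and tested with edgeR 4.0.16 (R 4.3.3), using the robust quasi-likelihood test, filterByExpr, TMM scaling, 1 mean per group over all 16 libraries, and Benjamini-Hochberg adjustment over 14435 genes at 0.05. Log2 CPM used a prior count of 2, and log2 TPM a pseudocount of 0.1. DESeq2 1.42.0, limma-voom (limma 3.58.1), other filters and scaling, a replicate block and left-out libraries were alternatives. The steps were tested on simulated data. Totals of 12.26 to 39.42 M expected counts limit the precision of low genes. Transcript shares came from the mean length that a TPM and a count imply, calibrated on 428 to 607 genes with a single transcript per library.

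Named were Pou4f1, the POU list, genes starting within 500 kb, and the 8 highest and 8 lowest by r. Also named were the 5 highest and 5 lowest by r within groups and the called members of each list, up to 6 by smallest p. Erg, Runx1t1, Bcl2, Gadd45a, Kit, Ccnd1, Sparc, Cacna2d2 and Nrp1 were named after their values were seen. Pou4f1 and the lists were chosen with earlier results of these data known. Same-numbered libraries did not deviate together (30 pairs, r of −0.266 to 0.163), so numbers were not taken as pairs.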

Additional observations from a re-analysis of the deposited data

Results flagged for a closer look

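In secondary disease replicate 4, 8 genes stood apart from the other 3 libraries of the group. The rule used a gap that normally distributed values give in about 1 of 20 groups. It says little for Pou1f1, Pou3f1, Pou3f2, Pou3f3 and Pou3f4, which were at 0 CPM in the other 3 libraries and so had no spread there. The share of all genes that the rule would flag was not computed. The 8 genes were Pou3f1 at 22.6 CPM, Pou3f3 at 14.1 CPM, Pou6f1 at 8.76 CPM, Pou3f4 at 5.29 CPM, Pou3f2 at 3.56 CPM and Pou1f1 at 1.73 CPM, all high in replicate 4, with Rnf219 at 8.07 CPM and Acad11 at 26.1 CPM, both low in it. The neuron and glia markers summed to 2840 CPM in the same library, and their part in these values was not tested.

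Of the genes named here, 2 were flagged for a doxycycline effect that differed between the tissues. Opposite signs were not particular to them. Genes picked for following or mirroring Pou4f1 also had them, such as Aida (0.465 in marrow, −0.254 in spleen) and Haus4 (−0.525, 0.399). For Pou4f1 the spleen effect minus the marrow effect was −2.06 on the log2 scale, the difference for which it was chosen, so no test is given. For Cenph it was 1.26 ± 0.20 (SE), and the gene was flagged because edgeR called this difference. It was picked for mirroring Pou4f1, so the value restates that choice and nothing is read from the call. Without spleen control replicate 1 or 2, edgeR called 0 genes for this difference (853 and 838 at an unadjusted p under 0.05).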

How the results depend on the processing

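Pou4f1 kept its direction in all 6 comparisons under every alternative run. The 7-day comparisons were used to choose the gene. Its groups did not overlap in any of the 5 relations given above, so leaving out 1 library could hardly turn a direction. Little is therefore read from the kept directions. Its secondary disease differences passed the test under no alternative. The cause of the changes below was not tested. On log2(TPM + 0.1) its spleen doxycycline difference was −1.20, and that of secondary disease against spleen doxycycline 0.683. With the replicate block its log2 fold changes in secondary disease were −0.438 against spleen control (adjusted p = 0.205) and 0.439 against spleen doxycycline (0.144). Leaving out 1 library gave group means of 35.45 to 40.89 CPM in bone marrow doxycycline, 15.38 to 18.77 in bone marrow control, 22.71 to 24.16 in secondary disease, 17.09 to 18.32 in spleen doxycycline and 30.96 to 34.47 in spleen control. Numbers of genes called depended strongly on the fit. In bone marrow doxycycline 949 were called, with 349 without a filter, 1966 with the replicate block, 1996 by DESeq2, 4929 from only the groups compared, and 23 (without bone marrow control 2) to 2428 (without secondary disease 4) with 1 library left out. In spleen doxycycline 107 were called, with 10, 374, 715 and 1 under the same 4 alternatives, and 0 (without spleen control 2 or 3) to 1364 (without spleen doxycycline 1). For the difference between tissues 7 were called, with 2, 39, 250 and 23, with 34 by limma-voom, and 0 (without spleen control 1 or 2) to 645 (without spleen doxycycline 2). Between the control tissues 27 were called, with 7, 117, 304 and 1927, with 170 by limma-voom, and 0 (without spleen control 2) to 190 (without secondary disease 4). In secondary disease against spleen control 293 were called, with 134 without a filter, 756 by DESeq2, and 61 (without spleen control 2) to 523 (without secondary disease 4). Against spleen doxycycline 134 were called, with 26, 347, 866 and 0 (717 at an unadjusted p under 0.05), with 66 by limma-voom, and 0 (without secondary disease 2 or 3) to 1336 (without spleen doxycycline 1). Of the 16 genes that follow Pou4f1, 3 stayed on TPM, 10 by Spearman's rho, 6 over the 12 libraries at 7 days, and 1 (without spleen doxycycline 2) to 15 (without bone marrow control 2) with 1 library left out. The values of single genes included correlations with Pou4f1, which have a direction but no call. Under the alternatives that leave out no library, 324 values kept their direction and, where tested, their side of the threshold. Of the others, 23 lost a call, 8 gained one and 7 changed sign. With 1 library left out, 774 values were kept in this sense, while 109 lost a call, 6 gained one and 23 changed sign. Every value that changed sign was uncalled with and without the change. These were Rnf219 in the difference between tissues (0.00743 from only the groups compared, −0.11 to 0.085 with 1 library left out) and against spleen control (0.158 with the replicate block, −0.285 to 0.157); Pou2f1 in spleen doxycycline (−0.601 to 0.0978) and in secondary disease against spleen control (0.111 with the block, −0.432 to 0.105) and spleen doxycycline (−0.279 to 0.42). Pou2f2 did so in secondary disease against spleen doxycycline (−0.0433 with the block, −0.174 to 0.981), as did Pou2af1 (0.154 with the block, 0.302 by limma-voom, −0.766 to 0.787), and Pou2af1 also between the control tissues (0.579 by limma-voom, −1.35 to 0.62).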
